A study of Mus musculus with 18 samples.

Results

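The E2F transcription factors and their DP dimerisation partners were followed in mouse embryonic fibroblasts (MEFs) of 6 genotypes. They are 10 of the 51912 genes in the deposited table: the activators E2f1, E2f2 and E2f3, the repressors E2f4, E2f5, E2f6, E2f7 and E2f8, and the DP genes Tfdp1 and Tfdp2, taken by their Ensembl identifiers and not by any measured value. Bulk RNA-seq was done on 18 libraries of primary MEFs at passage 1, grown in 15% FBS and 5% oxygen, with 3 libraries per genotype: Pole4+/+ or Pole4-/-, each combined with Trp53+/+, Trp53+/- or Trp53-/-. Trp53 encodes the tumour suppressor p53 and Pole4 an accessory subunit of DNA polymerase epsilon, and the question put to these genes was how their transcripts differ when either or both are lost. All MEFs came from mid-gestation embryos of C57BL/6 parents heterozygous for both genes, carried the alleles in every cell with no Cre or transgene, and were plated after the head, heart and liver had been removed. According to the study's methods each embryo was dissected individually, but the labels do not say that the libraries of a genotype came from separate embryos, so that the p-values below measure the spread between these libraries only.

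E2F proteins bind DNA as dimers with a DP protein and control the genes that carry a cell from G1 into S phase. In resting or arrested cells the pocket proteins (RB1, RBL1 and RBL2) hold the E2F activators in check and use E2F4 and E2F5 to repress the same promoters, and cyclin-dependent kinases release this block. E2F6 represses without a pocket protein, as part of a Polycomb complex, and E2F7 and E2F8 are atypical members that bind DNA without a DP partner and shut down E2F targets later in S phase. The p53 target Cdkn1a (p21) inhibits those kinases, and in fibroblasts this is the best known route from p53 to E2F activity.

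Several E2f genes are themselves E2F targets, and promoter sequences are shown for that reason. They are printed for the members whose windows held the E2F letters named below, which was a condition for printing. RefSeq windows from 250 bases before to 50 bases after an annotated start (GRCm38.p6) were at hand for 8 of the 10 members, in 12 windows, and not for E2f4 and E2f5. Both strands were searched for an E2F core, spelled TTCCCGC, the variant TTCGCGC, the variant TTGCCGC or the variant TTGGCGC, and for the cell cycle homology region CHR (TTTGAA), which are shown in capitals whichever strand they lie on. Each excerpt is read 5′ to 3′ on its gene's own strand. For E2f7 the 250 bases before the start are shown (chr10:110745189-110745438, plus strand), for E2f8 the last 160 (chr7:48881597-48881756, minus strand), for Tfdp1 the last 120 (chr8:13338631-13338750, plus strand) and for E2f3 the last 50 (chr13:29986064-29986113, minus strand). For E2f2 the excerpt runs from base 21 to base 50 after the start (chr4:136172294-136172323, plus strand).
E2f7: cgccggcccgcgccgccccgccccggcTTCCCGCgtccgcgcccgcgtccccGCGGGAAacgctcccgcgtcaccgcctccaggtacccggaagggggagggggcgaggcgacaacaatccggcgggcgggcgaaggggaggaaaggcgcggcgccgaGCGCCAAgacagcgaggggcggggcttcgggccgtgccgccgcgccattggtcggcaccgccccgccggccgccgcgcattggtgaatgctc
E2f8: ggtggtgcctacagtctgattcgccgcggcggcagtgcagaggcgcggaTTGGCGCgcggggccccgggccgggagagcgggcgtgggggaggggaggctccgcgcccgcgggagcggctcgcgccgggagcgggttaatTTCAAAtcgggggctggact
Tfdp1: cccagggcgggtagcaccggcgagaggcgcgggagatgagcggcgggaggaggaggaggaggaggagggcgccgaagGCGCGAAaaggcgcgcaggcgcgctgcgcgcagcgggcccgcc
E2f3: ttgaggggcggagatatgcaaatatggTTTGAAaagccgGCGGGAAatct
E2f2: cgaatttggcggcatatagtTTGGCGCtaa

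An E2F core was found in the windows of 5 members, E2f2, E2f3, E2f7, E2f8 and Tfdp1, and in 9.57% of all 32851 windows of this length. That share is of single windows, while some members had more than 1 window, and no share per gene was counted. The Tfdp1 windows overlap and hold the same match. E2f7 held 3 of them, whose first bases lay at -223, -198 and -92 from the start. E2f8 held 1 at -111 and Tfdp1 1 at -43. E2f2 held 1 at 41 after the start, and E2f3 held 1 at -11 and another at 19 after the start, outside the excerpt. With a further T before the core, the sequence was found in 2.26% of all windows and in those of 4 members, E2f2, E2f3, E2f7 and Tfdp1. The CHR letters stood at -20 in E2f8, at -23 in E2f3 and at -31 in a second E2f2 window that is not shown, against 17.9% of all windows. CCAAT, found in 37.4% of all windows, stood at -46 and -14 in E2f7, at -112 in E2f8, where it overlaps the E2F core, at -145, -109 and -81 in E2f3, at -13 in the E2f2 window of the excerpt and at -174, -133 and -53 in the other. A match describes these letters in this window and is neither a binding site nor a cause of the levels below, and the windows of E2f1, E2f6 and Tfdp2 held none of the E2F core or CHR letters. The windows of E2f1 (chr2:154569377-154569676) and Tfdp2 (chr9:96258455-96258754 and chr9:96258998-96259297) lay wholly inside the gene models. The outermost 5′ ends of these gene models were thus not searched.

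The libraries held 9535971 to 35319918 expected counts (median 22781543), of which 0.968% to 42.5% fell on 5 ribosomal RNA genes. Levels are given in CPM, counts per 1000000 counts of a library, with library sizes scaled by edgeR's trimmed mean of M values (TMM). The highest ribosomal RNA share, 42.5%, was in Pole4-/- Trp53+/+ replicate 3, which also had the lowest TMM factor, 0.661. Trp53 ran at 64.2 to 96.1 CPM in Trp53+/+, 48.4 to 59.6 CPM in Trp53+/- and 8.65 to 12.1 CPM in Trp53-/- libraries, and Pole4 at 14.2 to 26.4 CPM in Pole4+/+ against 9.26 to 11.99 CPM in Pole4-/- libraries, so that reads on both genes remained in the nulls. The 10 fibroblast markers summed to 9867 CPM or more in every library, and the markers Epcam, Cdh1 and Krt5 of epithelium and all 4 of erythroid cells stayed under 1 CPM in each. The other epithelial markers, Krt18 and Krt8, reached 15.05 and 4.44 CPM, and the epithelial sum 20.02 CPM. The markers of macrophages summed to at most 21.1 CPM, of endothelium to 5.57 CPM and of skeletal muscle to 11.3 CPM, and those of neurons to 66.5 to 145.1 CPM. By the genes checked a single library stood apart: Pole4+/+ Trp53-/- replicate 1 had Trp53 at 11.6 CPM as its label asks, but Pole4 at 14.2 CPM against 25.4 and 26.4 CPM, and the proliferation marker Mki67 at 407 CPM against 581 and 751 CPM, in the other libraries of its genotype. It also held the Y-linked transcript Ddx3y at 2.76 CPM, where other libraries with Xist held at most 0.181 CPM. Whether it holds cells of more than 1 embryo or genotype was not tested, and every Pole4+/+ Trp53-/- value below that includes it carries this limit. Counts of calls among members, gene lists, proliferation and neuron markers that change by more than 1.5 times without it are given both ways. Calls of the fibroblast, epithelial and skeletal muscle markers were not counted without it. All 3 Pole4+/+ Trp53+/- libraries were male, all Pole4+/+ Trp53+/+ and Pole4+/+ Trp53-/- libraries female by their level of Y-linked transcripts, with the trace named above in 1 of them, and each Pole4-/- genotype held both sexes, so that in Pole4+/+ cells the heterozygous genotype and sex cannot be told apart.

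Every member passed the filter on low counts. Per kilobase of exon, the level averaged over the 18 libraries was highest for Tfdp1, at 33.3 CPM per kb, followed by E2f4 at 13.5 CPM per kb. E2f1 at 7.20, E2f3 at 7.09 and E2f6 at 7.02 CPM per kb lay close together, E2f5 reached 5.76, E2f7 4.13 and E2f8 3.98 CPM per kb, and Tfdp2 1.66 CPM per kb. E2f2 was lowest at 0.356 CPM per kb, with 9 to 81 counts in a library. The exon union of Tfdp2 spans 14029 bases, the longest of the 10, which lowers its value on this scale. Counts are per gene, so isoforms with separate roles are summed.

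The members also differed in how far they varied. From the lowest to the highest library E2f7 spanned 5.17-fold, E2f8 3.69-fold and E2f2 2.76-fold. Tfdp1 spanned 1.94-fold, E2f5 1.78-fold, E2f4 1.74-fold, E2f3 1.66-fold and E2f1 1.61-fold. Tfdp2 and E2f6 were the steadiest, at 1.51-fold and 1.5-fold. In a test for any difference among the 6 genotypes, 7 of the 10 members passed an adjusted p of 0.05 (edgeR's quasi-likelihood test with Benjamini-Hochberg adjustment over all 15710 genes tested), against 28.5% of all genes tested. E2f7 had the lowest adjusted p of the 10, 0.000979, followed by E2f8 at 0.00396, Tfdp2 at 0.00995, Tfdp1 at 0.0115, E2f5 at 0.0184, E2f4 at 0.0203 and E2f2 at 0.0265. E2f1 (adjusted p = 0.0932), E2f3 (0.253) and E2f6 (0.300) did not pass. The count was 3 without Pole4-/- Trp53+/+ replicate 2, where 17.9% of all genes tested passed.

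**Figure D1:**
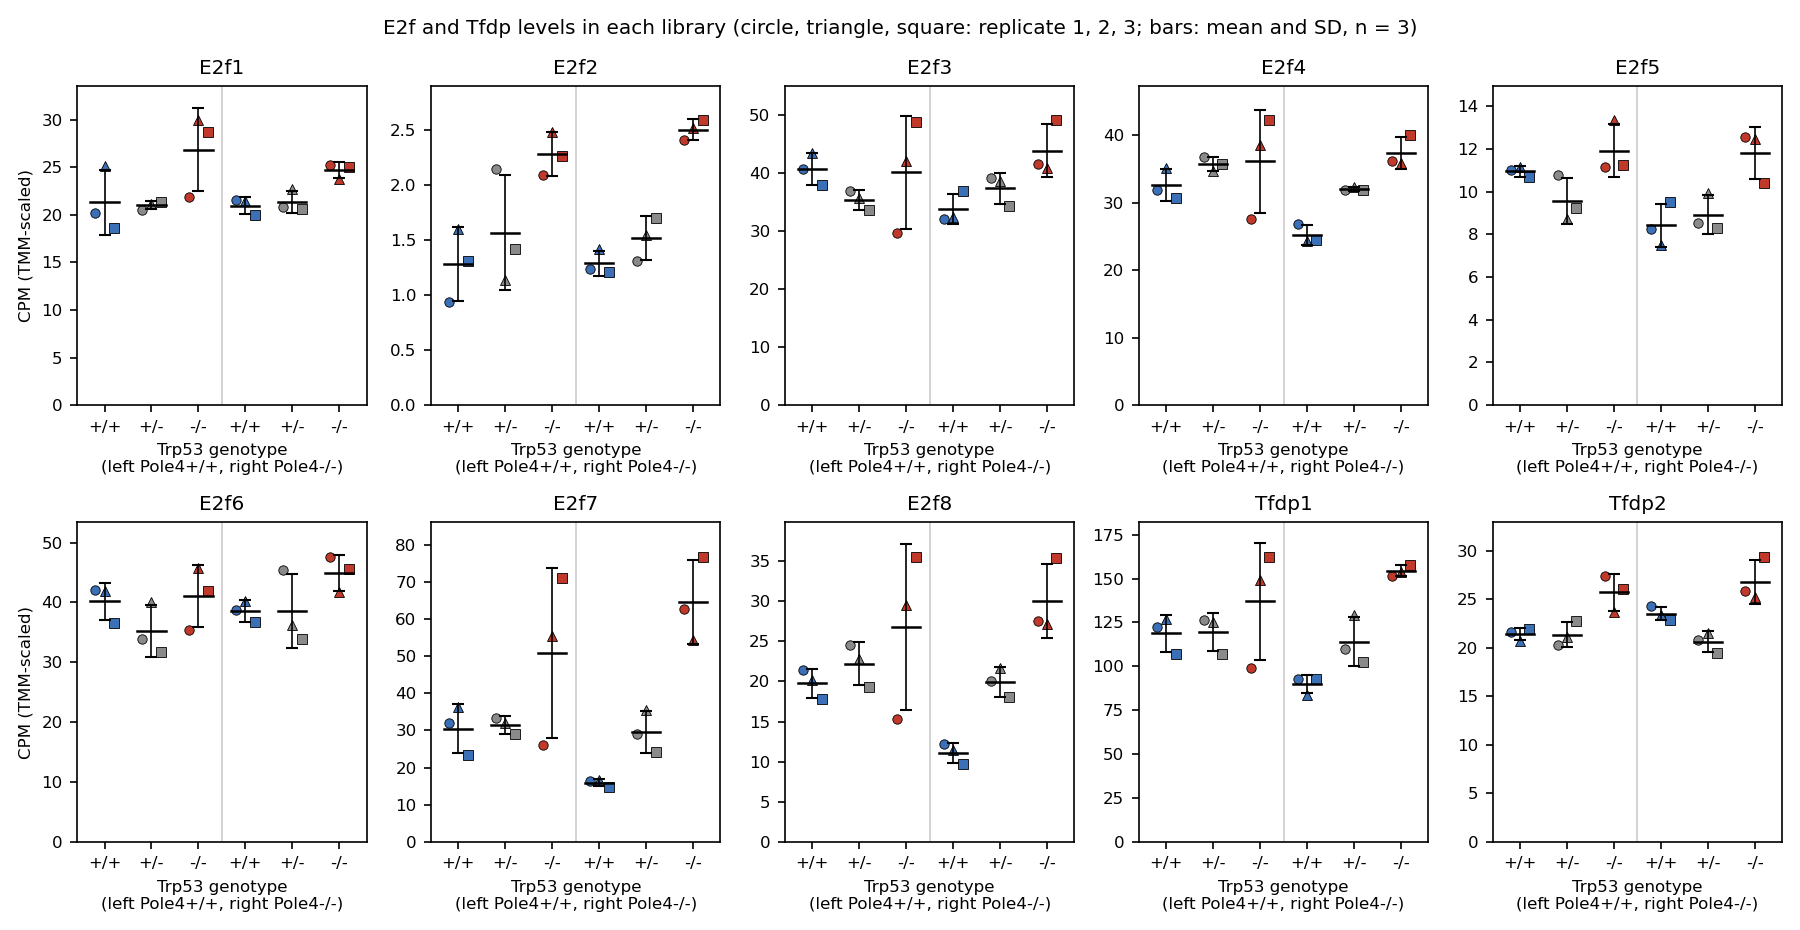
Level of each of the 10 genes in CPM (TMM-scaled, axes from 0) in every library, by Trp53 genotype, with Pole4+/+ left and Pole4-/- right of the grey line; circles, triangles and squares are replicates 1, 2 and 3 and bars the mean and SD (n = 3). E2f7 runs from 14.9 to 76.8 CPM and is lowest in the 3 Pole4-/- Trp53+/+ libraries, while E2f6 varies by 1.5-fold in all, and the red circle of Pole4+/+ Trp53-/- replicate 1 is the lowest of its genotype for every gene but Tfdp2.

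Most members rose with the loss of Trp53 in Pole4-/- cells. Comparing Pole4-/- Trp53-/- with Pole4-/- Trp53+/+ cells, 7 of the 10 members rose and 0 fell, where 42.6% of all genes tested passed in either direction, 21.8% rising and 20.8% falling. The rise included 2 of 3 activators, 4 of 5 repressors and 1 of 2 DP genes. The members' median log2 fold change was 0.53, beside -0.02 for all genes tested. With scaling by library totals alone, in place of TMM, 3 members rose, where 12% of all genes tested did. For all 10 members the 3 Trp53-/- libraries lay above the 3 Trp53+/+ libraries with no overlap, which held for 28.5% of all genes tested. In bulk RNA, fewer cells in a given state and less RNA per cell cannot be told apart, which applies to every comparison here.

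The atypical repressors changed most. E2f7 (ENSMUSG00000020185, chr10:110745439-110787384, plus strand) stood at 16.3, 16.6 and 14.9 CPM in the Pole4-/- Trp53+/+ libraries and at 62.8, 54.3 and 76.8 CPM in the Pole4-/- Trp53-/- libraries. These groups do not overlap, and the lowest Trp53-/- library lay far above the highest Trp53+/+ library. The log2 fold change was 2.02 ± 0.28 (SE), or 4.05-fold, with an edgeR adjusted p of 8.4e-05. E2f8 (ENSMUSG00000046179, chr7:48866429-48881596, minus strand) rose with it, from 12.1, 11.4 and 9.64 CPM to 27.6, 27.1 and 35.4 CPM. Its log2 fold change was 1.43 ± 0.23 (SE), or 2.69-fold, with an adjusted p of 0.000211. Both genes repress the S phase genes that E2F activators switch on, and their promoters hold the E2F core letters shown above. An exon of E2f8 shares 610 bases with the gene model Gm2788 on the opposite strand, which drew 120 counts over all libraries, and the kit is not stated to keep strand.

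Among the pocket-protein-dependent repressors, E2f4 (ENSMUSG00000014859, chr8:105297663-105305370, plus strand), the main E2F of arrested cells, stood at 26.9, 24.3 and 24.5 CPM in Pole4-/- Trp53+/+ and at 36.2, 35.9 and 40.1 CPM in Pole4-/- Trp53-/- libraries. It rose by a log2 fold change of 0.56 ± 0.12 (SE), or 1.48-fold (adjusted p = 0.00176). E2f5 (ENSMUSG00000027552, chr3:14578641-14606309, plus strand), its close relative, rose from 7.51 to 9.503 CPM across the Trp53+/+ libraries to 10.4 to 12.6 CPM across the Trp53-/- libraries, a log2 fold change of 0.50 ± 0.13 (SE) and an adjusted p of 0.00599. E2f6 (ENSMUSG00000057469, chr12:16810963-16839742, plus strand) did not pass, with a log2 fold change of 0.22 ± 0.12 (SE) and an adjusted p of 0.167 and ranges of 36.7 to 40.2 CPM and 41.7 to 47.6 CPM. The size of the difference thus ran from E2f7 and E2f8 over E2f4 and E2f5 to E2f6. E2f5 shares 26 exon bases with 1810022K09Rik, which drew 14003 counts over all libraries.

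The activators differed from each other. E2f2 (ENSMUSG00000018983, chr4:136172394-136196057, plus strand) rose from 1.24, 1.42 and 1.21 CPM to 2.40, 2.51 and 2.59 CPM, a log2 fold change of 0.95 ± 0.27 (SE) or 1.94-fold (adjusted p = 0.0104), from few counts. E2f3 (ENSMUSG00000016477, chr13:29906575-29986063, minus strand) stood at 32.1, 32.5 and 36.8 CPM against 41.6, 40.8 and 49.1 CPM. Its log2 fold change of 0.38 ± 0.14 (SE) passed narrowly (adjusted p = 0.0401), and the call held in 21 of 28 alternatives, over which the adjusted p ran from 0.00351 to 0.174. It was lost without Pole4-/- Trp53-/- replicate 1 (0.0545) or 3 (0.159) and without Pole4-/- Trp53+/+ replicate 1 (0.101) or 2 (0.108). E2f1 (ENSMUSG00000027490, chr2:154559407-154569892, minus strand), the founding activator, lay at 19.9 to 21.5 CPM in Trp53+/+ and 23.7 to 25.3 CPM in Trp53-/- libraries, a log2 fold change of 0.23 ± 0.12 (SE) that did not pass (adjusted p = 0.135). The E2f1 gene thus showed no call although its ranges did not overlap.

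Of the DP genes, Tfdp1 (ENSMUSG00000038482, chr8:13338751-13378448, plus strand), the most abundant member, rose from 92.5, 83.7 and 93.0 CPM to 151.7, 153.8 and 157.8 CPM. The log2 fold change was 0.78 ± 0.14 (SE), or 1.72-fold (adjusted p = 0.000625). Tfdp2 (ENSMUSG00000032411, chr9:96196275-96323646, plus strand) did not pass, at 22.9 to 24.3 CPM against 25.2 to 29.4 CPM and a log2 fold change of 0.19 ± 0.09 (SE) and an adjusted p of 0.093. An exact two-sided permutation test of each member, 3 libraries against 3, gave p = 0.1 for all 10, the smallest p this design allows. The 5 proliferation markers all rose in the same comparison, their sum running from 438.3 to 461.2 CPM in Trp53+/+ and from 1315 to 1627 CPM in Trp53-/- libraries, and the epithelial keratins Krt8 and Krt18 also rose, within a marker sum of 20.02 CPM or less. Of the neuron markers 2 of 4 tested rose, and their sum ran from 77.4 to 97.0 CPM in Trp53+/+ and from 123.5 to 145.1 CPM in Trp53-/- libraries. The fibroblast marker sum was lowest in Pole4-/- Trp53-/- cells, at 9867 to 12300 CPM, with 4 of 10 markers falling and 1 rising. The part of these changes in the E2f and Tfdp levels was not tested.

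In Pole4+/+ cells the same loss of Trp53 gave 0 calls among the 10 members, where 4.6% of all genes tested passed, 2.23% rising. At an unadjusted p under 0.05 there were 4, where 19% of all genes tested were. DESeq2 also called 0, and limma-voom with quality weights called 6, where it called 18.8% of all genes tested. The proliferation marker sum was 655.6 to 893.7 CPM in Trp53+/+ and 841.7 to 1480 CPM in Trp53-/- libraries, with 2 of 5 markers rising, or 5 of 5 without replicate 1 of the latter. The neuron marker sum was 66.5 to 86.0 CPM against 100.1 to 137.6 CPM, with 0 of 4 tested markers called, or 1 without that replicate, and the skeletal muscle sum 1.76 to 1.97 CPM against 2.60 to 11.3 CPM, with 0 of 4 called. The part of these markers was not tested. E2f7 stood at 32.0, 36.2 and 23.3 CPM in Pole4+/+ Trp53+/+ and at 26.1, 55.4 and 71.2 CPM in Pole4+/+ Trp53-/- libraries, a log2 fold change of 0.73 ± 0.27 (SE) and an adjusted p of 0.136. E2f8 stood at 21.4, 20.2 and 17.8 CPM against 15.4, 29.5 and 35.6 CPM, a log2 fold change of 0.43 ± 0.22 (SE) and an adjusted p of 0.315. For both genes the lowest value of the Trp53-/- group came from replicate 1, the library that stood apart, and the other pair lay above all Trp53+/+ libraries. Tfdp1 showed the same order, with 99.3, 149.4 and 162.5 CPM in Trp53-/- against 107.0 to 127.2 CPM in Trp53+/+ libraries.

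The members that were clear of overlap in Pole4+/+ cells were E2f2 and Tfdp2, 2 of 10, where 8.24% of all genes tested lay higher without overlap. In the absence of replicate 1 the count was 8 of 10, all but E2f3 and E2f6, where 24.2% of all genes tested lay higher, an alternative chosen after seeing the data. E2f2 stood at 0.937, 1.603 and 1.31 CPM against 2.09, 2.48 and 2.26 CPM, a log2 fold change of 0.84 ± 0.26 (SE) and an adjusted p of 0.0784. Tfdp2 stood at 21.6, 20.7 and 21.9 CPM against 27.4, 23.7 and 26.0 CPM, a log2 fold change of 0.26 ± 0.08 (SE) and an adjusted p of 0.0878. For both genes replicate 1 lay above every Trp53+/+ library as well. The exact permutation p was 0.1 for these 2, the smallest possible, and 0.2 to 0.9 for the other 8. E2f1 had a log2 fold change of 0.33 ± 0.12 (SE) and an adjusted p of 0.127, and the remaining members lay between -0.02 for E2f3 and 0.20 for Tfdp1, beside a median of 0.03 for all genes tested.

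Without Pole4+/+ Trp53-/- replicate 1, 5 of the 10 members rose in Pole4+/+ cells, and 16.9% of all genes tested passed. They were E2f7 at a log2 fold change of 1.02 ± 0.18 (SE) and an adjusted p of 0.00224, E2f8 at 0.68 ± 0.14 (0.00471), E2f1 at 0.43 ± 0.10 (0.0107), Tfdp1 at 0.36 ± 0.10 (0.0230) and E2f4 at 0.28 ± 0.08 (0.0298). E2f2 kept its size, at 0.88, with an adjusted p of 0.0521. Leaving out replicate 3 of that genotype instead moved the values the other way and left 0 calls, with log2 fold changes of 0.40 for E2f7 (adjusted p = 0.469), 0.16 for E2f8 (0.798), 0.048 for Tfdp1 (0.933), 0.0049 for E2f4 (0.995) and -0.20 for E2f3 (0.472). The values in Pole4+/+ cells thus moved with either library, and what sets replicate 1 apart was not tested.

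**Figure D2:**
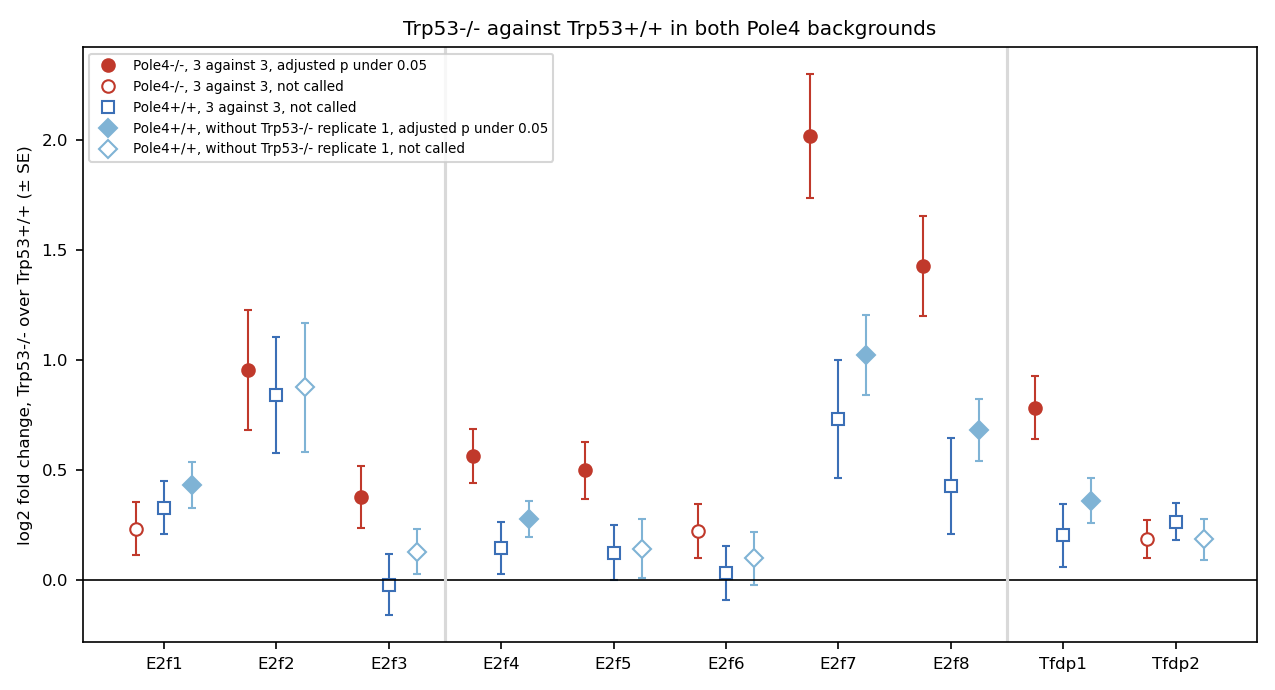
Log2 fold change (± SE) of each gene in Trp53-/- over Trp53+/+ MEFs: red circles in Pole4-/-, dark blue squares in Pole4+/+ with all libraries, light blue diamonds in Pole4+/+ without Trp53-/- replicate 1; filled symbols passed an adjusted p of 0.05, and grey lines part activators, repressors and DP genes. E2f7 reaches 2.02 in Pole4-/- against 0.73 in Pole4+/+ cells, or 1.02 without the replicate, and E2f2 lies between 0.84 and 0.95 in all 3.

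Whether Trp53 loss acted differently in the 2 Pole4 backgrounds was tested directly as an interaction. Of the 10 members 0 passed, where 0.331% of all genes tested did. At an unadjusted p under 0.05 there were 4, where 28.3% of all genes tested were, so that this count stood near the background. DESeq2 and limma-voom each called 3, where they called 11.4% and 7.85% of all genes tested. The difference of the log2 fold changes was 1.29 ± 0.38 (SE; edgeR adjusted p = 0.0705) for E2f7, 1.00 ± 0.31 (0.0767) for E2f8 and 0.58 ± 0.20 (0.094) for Tfdp1. It was close to 0 for E2f2 at 0.11, E2f1 at -0.10 and Tfdp2 at -0.08, none of which passed. Without Pole4+/+ Trp53-/- replicate 3, 5 members passed, where 20.1% of all genes tested did: E2f7 (1.603, adjusted p = 0.0139), E2f8 (1.25, 0.0150), Tfdp1 (0.72, 0.0214), E2f4 (0.54, 0.0258) and E2f3 (0.56, 0.0343). Without replicate 2 there was 1 call, where 12.3% of all genes tested passed. Without replicate 1 of that genotype 0 passed, where 1.07% of all genes tested did, and E2f7 had a difference of 0.97 (adjusted p = 0.0652). For Trp53+/- in place of Trp53-/- the interaction gave 0 calls among the members by edgeR, DESeq2 and limma-voom, with 1 at an unadjusted p under 0.05 (10.1% of all genes tested), and 0% of all genes tested passed.

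Pole4 loss in Trp53+/+ cells gave fold changes of the opposite sign for E2f7, E2f8, Tfdp1 and E2f4, none of which passed. Comparing Pole4-/- Trp53+/+ with Pole4+/+ Trp53+/+ cells, 0 members passed, where 3.98% of all genes tested did and 2.7% fell. At an unadjusted p under 0.05 there were 5, where 26.1% of all genes tested were. DESeq2 called 2 and limma-voom 6, where they called 10.3% and 33.3% of all genes tested. E2f8 had a log2 fold change of -0.83 ± 0.23 (SE) and an adjusted p of 0.0524, and E2f7 one of -0.93 ± 0.28 (SE; 0.0661). E2f7 thus stood at 14.9 to 16.6 CPM in the absence of Pole4 and at 23.3 to 36.2 CPM in its presence. Tfdp1 (-0.41), E2f5 (-0.39), E2f4 (-0.37) and E2f3 (-0.27) lay on the same side, with adjusted p from 0.084 to 0.233. These 6 members, 6 of 10, lay lower with no overlap between the groups, as 21.7% of all genes tested did. The activators E2f1 (-0.02) and E2f2 (0.02), and E2f6 (-0.06), lay within their SE of 0, and Tfdp2 (0.14 ± 0.09) lay slightly higher. All 5 proliferation markers fell here, from a sum of 655.6 to 893.7 CPM to one of 438.3 to 461.2 CPM. The fibroblast marker sum lay higher, at 16330 to 20350 CPM against 11760 to 15430 CPM in Pole4+/+ Trp53+/+ libraries, with 0 of 10 markers called, and the epithelial sum lower, at 2.06 to 2.67 CPM against 2.84 to 6.76 CPM, with 0 of 2 called. The ribosomal RNA share was 7.11% to 42.5% in the Pole4-/- Trp53+/+ and 5.81% to 11.2% in the Pole4+/+ Trp53+/+ libraries. The former were 2 male and 1 female, the latter 3 female. The part of the markers, the ribosomal RNA and sex was not tested.

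This comparison shares the spread of all 18 libraries. Without Pole4+/+ Trp53-/- replicate 1, which belongs to neither group, the fold changes stayed and 6 members fell, where 20.2% of all genes tested passed: E2f8 (adjusted p = 0.00125), E2f7 (0.0025), E2f4 (0.00409), Tfdp1 (0.00655), E2f5 (0.0364) and E2f3 (0.0469). Without Pole4+/+ Trp53-/- replicate 3 there were 3 calls (7.87% of all genes tested), and without Pole4+/+ Trp53+/+ replicate 3 there were 2 (4.93%). In Trp53+/- cells Pole4 loss gave 0 calls and 0 members at an unadjusted p under 0.05, with 0 by DESeq2 and limma-voom, where 0.00637% of all genes tested passed. In Trp53-/- cells the counts were the same, and 0.00637% of all genes tested passed. E2f7 there differed by a log2 fold change of 0.35 ± 0.27 (SE) and an adjusted p of 0.616, and E2f8 by 0.17 ± 0.22 (SE; 0.774). These differences were 0.038 ± 0.18 (SE; 0.995) and -0.11 ± 0.14 (SE; 0.968) without Pole4+/+ Trp53-/- replicate 1, and 0.66 ± 0.26 (SE; 0.162) and 0.42 ± 0.21 (SE; 0.249) without its replicate 3. The Trp53 comparison in Pole4-/- cells and this one share the Pole4-/- Trp53+/+ libraries, in which E2f1, E2f3, E2f4, E2f5, E2f7, E2f8 and Tfdp1 had their lowest mean of the 6 genotypes.

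With 1 copy of Trp53 the atypical repressors lay between the wild-type and the null in Pole4-/- cells. E2f8 stood at 20.03, 21.7 and 18.1 CPM in Pole4-/- Trp53+/- libraries and rose over Pole4-/- Trp53+/+ by a log2 fold change of 0.84 ± 0.23 (SE) and an adjusted p of 0.0462. It was the only member called, 1 of 10, where 5.12% of all genes tested passed and 2.96% rose, and the call was lost when the replicate number was added as a block (adjusted p = 0.054). It held in 13 of 28 alternatives, over which the adjusted p ran from 0.00139 to 0.207, and was lost without any single Pole4-/- library and without replicate 1 or 2 of Pole4+/+ Trp53+/- or of Pole4+/+ Trp53+/+. Without Pole4+/+ Trp53-/- replicate 1 there were 4 calls, where 20% of all genes tested passed, and without its replicate 3 there were 3, where 9.38% did. The proliferation marker sum ran from 621.4 to 828.4 CPM in Pole4-/- Trp53+/- against 438.3 to 461.2 CPM in Pole4-/- Trp53+/+ libraries, with 4 of 5 markers rising. The epithelial marker sum ran from 3.90 to 6.44 CPM against 2.06 to 2.67 CPM, with 0 of 2 tested markers called. The part of these markers was not tested. E2f7 stood at 29.0, 35.4 and 24.3 CPM, above every Pole4-/- Trp53+/+ and below every Pole4-/- Trp53-/- library, a log2 fold change of 0.89 ± 0.28 (SE) and an adjusted p of 0.0705 over the wild-type. E2f4 (0.34) and Tfdp1 (0.35) lay higher without passing, and E2f1 (0.02) and E2f5 (0.09) lay within their SE of 0.

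From Pole4-/- Trp53+/- to Pole4-/- Trp53-/- 3 members rose, where 12.5% of all genes tested passed and 6.58% rose. Tfdp2 rose from 19.4 to 21.6 CPM across the heterozygous libraries to 25.2 to 29.4 CPM across the null, a log2 fold change of 0.38 ± 0.08 (SE) and an adjusted p of 0.00969. E2f7 rose by 1.13 ± 0.27 (SE; 0.0141) and E2f5 by 0.41 ± 0.13 (SE; 0.0442). The count was 0 without Pole4-/- Trp53+/- replicate 1 or 3 or Pole4-/- Trp53-/- replicate 3, where 5.1%, 4.87% and 4.03% of all genes tested passed, and 5 without Pole4+/+ Trp53-/- replicate 1 or 3, where 23% and 15.7% did. Scaling by library totals alone also left 0, where 7.97% passed, with log2 fold changes of 0.053 for Tfdp2, 0.82 for E2f7 and 0.079 for E2f5. The call held in 23 of 28 alternatives for Tfdp2, in 24 for E2f7 and in 10 for E2f5. All 5 proliferation markers rose in the same comparison, from a sum of 621.4 to 828.4 CPM to one of 1315 to 1627 CPM. Of the fibroblast markers 2 of 10 fell, with a sum of 15020 to 18540 CPM in the heterozygous and 9867 to 12300 CPM in the null libraries, and 1 of 2 epithelial markers tested rose, with a sum of 3.90 to 6.44 CPM against 4.19 to 20.02 CPM. The ribosomal RNA share was 3.75% to 15.5% in the heterozygous and 24.7% to 30.0% in the null libraries. The part of any of these in the 3 calls was not tested. Tfdp2 thus passed between the heterozygous and the null and not between the wild-type and the null, and its mean was lowest of the 6 genotypes in Pole4-/- Trp53+/-. In Pole4+/+ cells the heterozygous libraries gave 0 calls against Trp53+/+, with 0 at an unadjusted p under 0.05 and 0 by DESeq2 and limma-voom, where 0.904% of all genes tested passed. The null gave 0 calls against the heterozygous, with 4 at an unadjusted p under 0.05, 0 by DESeq2 and 2 by limma-voom, where 0.579% of all genes tested passed, 9.31% were under that unadjusted p and limma-voom called 7.59%. The count of calls was 4 without Pole4+/+ Trp53-/- replicate 1, where 9.41% of all genes tested passed. In these Pole4+/+ cells E2f7 stood at 33.5, 32.0 and 28.9 CPM in the heterozygous libraries, inside the range of the wild-type.

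**Figure D3:**
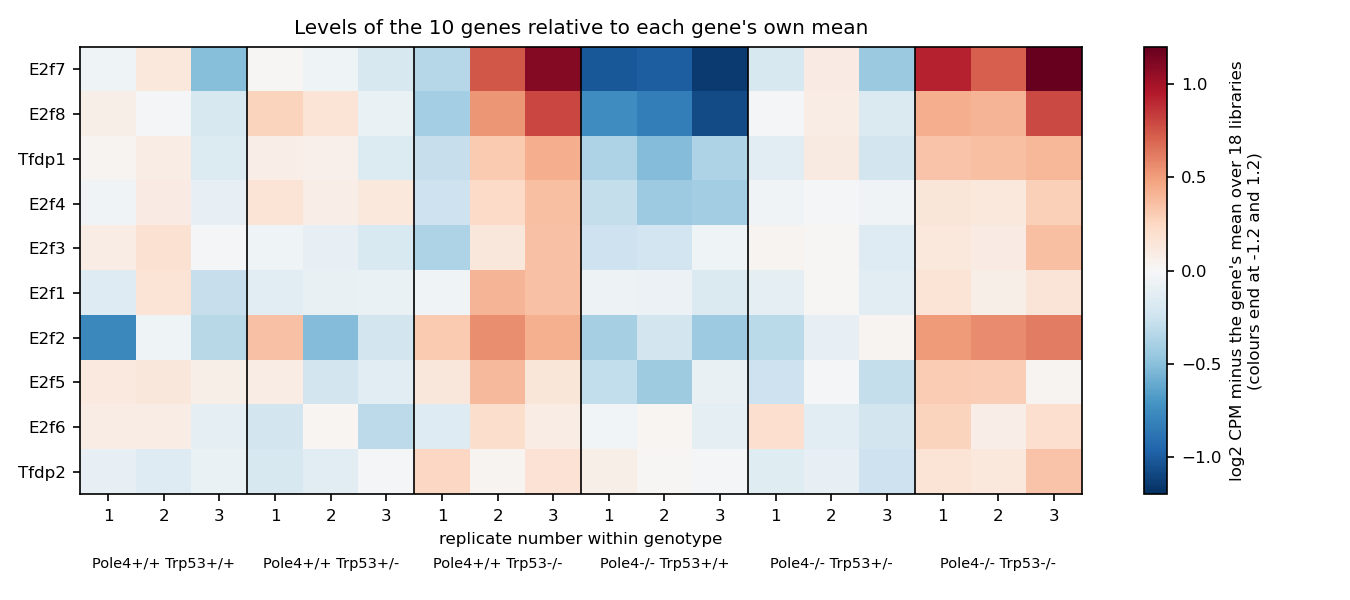
Log2 CPM of each gene minus its own mean over the 18 libraries, with a column per library (replicate numbers below, genotypes separated by black lines; colours end at -1.2 and 1.2). E2f7, E2f8, Tfdp1 and E2f4 are blue together in the 3 Pole4-/- Trp53+/+ libraries and in Pole4+/+ Trp53-/- replicate 1, and red together in the other Trp53-/- libraries of both backgrounds.

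Activators and repressors were then compared as classes, by sums of CPM per kb, as a description with no test. The activators E2f1 to E2f3 summed to 13.1 ± 0.19 (SD, n = 3) for Pole4-/- Trp53+/+, 14.0 ± 0.72 for Pole4-/- Trp53+/- and 16.4 ± 1.01 for Pole4-/- Trp53-/- libraries. E2f4 to E2f6 summed to 21.8 ± 0.60, 24.9 ± 1.13 and 29.8 ± 0.71 in the same order, and E2f7 with E2f8 to 3.80 ± 0.33, 6.95 ± 0.96 and 12.7 ± 2.09 CPM per kb. All 3 classes were thus higher in the Trp53-/- libraries, and the atypical pair by the largest factor. In Pole4+/+ cells the activators summed to 14.5 ± 1.62, 13.5 ± 0.25 and 16.4 ± 3.11, E2f4 to E2f6 to 26.5 ± 1.53, 26.2 ± 0.84 and 28.7 ± 4.25, and E2f7 with E2f8 to 7.02 ± 1.02, 7.57 ± 0.75 and 10.6 ± 4.45 CPM per kb. The SD was widest in the Trp53-/- group, where replicate 1 lay lowest in all 3 sums, with E2f7 and E2f8 at 5.72 CPM per kb. Without it the sums of that group were 18.1 ± 0.564, 31.1 ± 0.267 and 13.01 ± 2.03 CPM per kb (SD, n = 2).

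As a share of the summed E2f level, E2f7 with E2f8 made up 9.81% ± 0.814 (SD, n = 3) for Pole4-/- Trp53+/+, 15.1% ± 1.33 for Pole4-/- Trp53+/- and 21.5% ± 2.19 for Pole4-/- Trp53-/- libraries. The activators went the other way, from 33.9% over 30.5% to 27.9%. E2f4 to E2f6 held the largest share throughout, from 56.3% to 50.7% over these genotypes. In Pole4+/+ cells the activators took 30.2%, 28.6% and 29.5% and the atypical pair 14.6%, 16.0% and 18.4%, a smaller spread. The last values were 29.1% and 20.8% without Pole4+/+ Trp53-/- replicate 1.

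On a log scale, the mean log2 CPM of the 3 activators minus that of the 5 repressors was -0.79 ± 0.07 (SD, n = 3) for Pole4-/- Trp53+/+, -1.08 ± 0.12 for Pole4-/- Trp53+/- and -1.22 ± 0.04 for Pole4-/- Trp53-/- libraries. The range of -0.86 to -0.74 in Pole4-/- Trp53+/+ lay above the range of every other genotype. Pole4+/+ libraries averaged -1.21, -1.19 and -1.10 for Trp53+/+, Trp53+/- and Trp53-/-. The choice of repressors set this pattern: with E2f4 to E2f6 alone the Pole4-/- values were -1.03, -1.04 and -0.94, and with E2f7 and E2f8 alone -0.43, -1.16 and -1.63. On this scale the balance of activators against E2f4 to E2f6 thus moved by about the size of the SD. That against the atypical pair moved by more than the whole range within any of these genotypes. Each gene weighs the same here, also E2f2 with 9 to 81 counts in a library. In sums of CPM per kb the activators went from 13.1 to 16.4 and E2f4 to E2f6 from 21.8 to 29.8, so that their balance moved the other way.

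**Figure D4:**
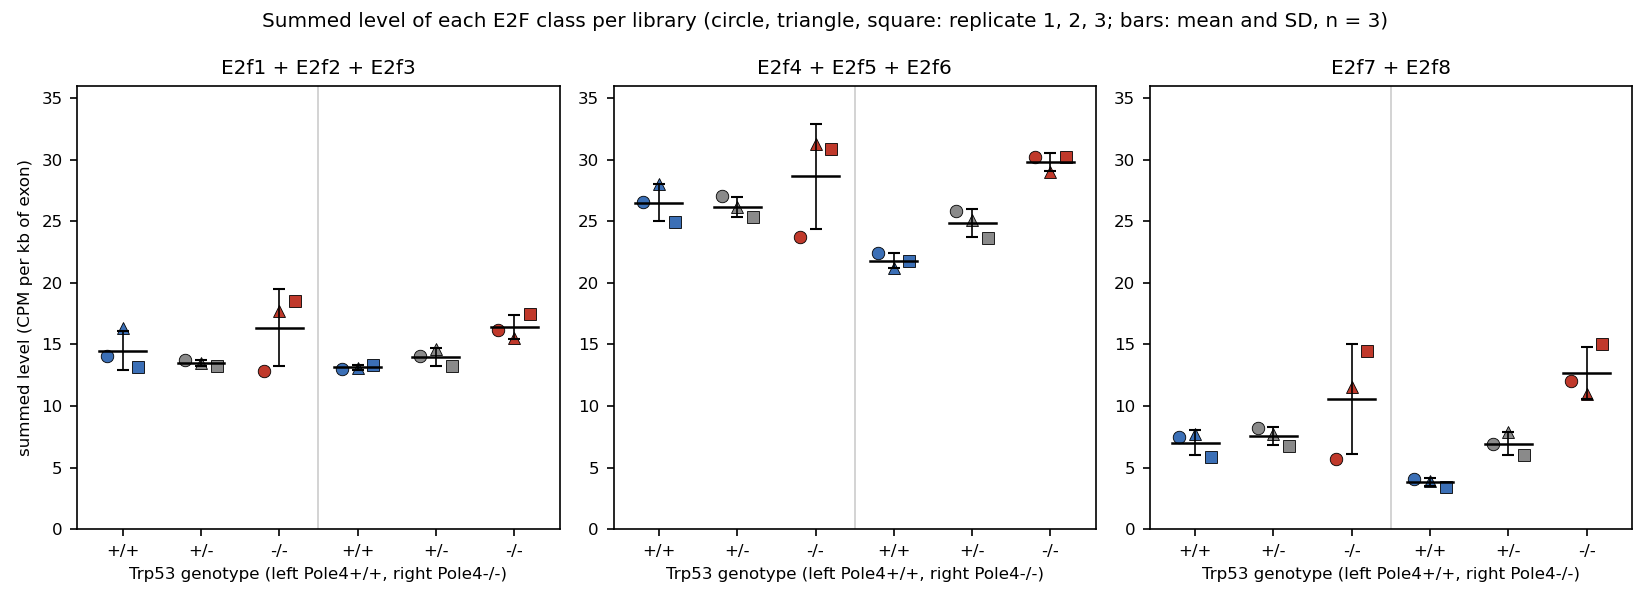
Summed level of each E2F class in CPM per kb of exon (all axes from 0 to 36) in every library, by Trp53 genotype, with Pole4+/+ left and Pole4-/- right of the grey line; circles, triangles and squares are replicates 1, 2 and 3 and bars the mean and SD (n = 3). E2f7 with E2f8 goes from 3.80 in Pole4-/- Trp53+/+ to 12.7 in Pole4-/- Trp53-/- while the activators go from 13.1 to 16.4.

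The genes that act on E2F proteins were examined next. Of the 3 pocket proteins, in Pole4-/- cells without Trp53, Rb1 fell by 1.45 on the log2 scale (SE 0.13; adjusted p = 2.01e-06) and Rbl2, the pocket protein of quiescent cells, fell by 0.65 (SE 0.14; 0.00169), while Rbl1, itself an E2F target, rose by 0.98 ± 0.12 (2.07e-05). In Pole4+/+ cells 1 passed, Rb1, which fell by 0.86 (SE 0.13; adjusted p = 0.000971), and without Pole4+/+ Trp53-/- replicate 1 Rbl1 also rose, by 0.40 ± 0.10 (SE; 0.0128). Of all genes tested 42.6% passed in Pole4-/- cells, and 4.6%, or 16.9% without that replicate, in Pole4+/+ cells. In Trp53+/+ cells Pole4 loss went the other way for Rb1, which rose by 0.64 ± 0.12 (SE; 0.0203), and Rbl1 fell by 0.44 (SE 0.12; 0.0486), where 3.98% of all genes tested passed. Without that library Rbl2 rose here too, by 0.35 ± 0.096 (SE; 0.019), where 20.2% passed. The transcripts of the pocket proteins thus did not move as a group.

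Of the 12 G1 kinases, cyclins and inhibitors, 6 rose and 3 fell with Trp53 loss in Pole4-/- cells and 0 rose and 2 fell in Pole4+/+ cells. Of all genes tested 21.8% rose and 20.8% fell in the former and 2.23% rose and 2.37% fell in the latter. Without Pole4+/+ Trp53-/- replicate 1, 2 rose and 2 fell in Pole4+/+ cells, where 8.58% of all genes tested rose and 8.34% fell. Cdkn1a fell by 5.72 on the log2 scale (SE 0.26; adjusted p = 1.47e-09) in Pole4-/- cells and by 4.59 (SE 0.24; 1.06e-08) in Pole4+/+ cells. It was at 5.66 to 12.03 CPM in Pole4+/+ Trp53-/- and 5.17 to 8.80 CPM in Pole4-/- Trp53-/- libraries, replicate 1 of the former included, at 11.8 CPM. Ccnd2, a D-type cyclin, fell by 1.00 (SE 0.14; 5.31e-05) and by 0.78 (SE 0.13; 0.00331) in the same order. In Pole4-/- cells Ccne2, an E-type cyclin, rose by 1.43 ± 0.26 (SE; 0.000519) and its kinase Cdk2 by 0.90 ± 0.13 (SE; 7.64e-05). Cdkn2a, which encodes p16 and p19ARF, had the highest log2 fold change in Pole4+/+ cells, 1.59 ± 0.50 (SE), without passing (adjusted p = 0.0893), and 0.37 ± 0.29 (SE; 0.42) without that replicate.

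The MuvB core joins E2F4 and the pocket proteins in repression and the MYB partner Mybl2 in activation. The core genes and Mybl2 together had 4 of 6 higher and 0 lower with Trp53 loss in Pole4-/- cells, where 21.8% of all genes tested rose. Mybl2 rose by 2.54 ± 0.39 (SE; adjusted p = 0.000161), more than any E2f gene, Lin9 by 1.68 ± 0.20 (2.14e-05), Lin54 by 1.25 ± 0.16 (3.51e-05) and Rbbp4 by 0.71 ± 0.11 (0.000115). Lin37 had a log2 fold change of -0.26 ± 0.16 (SE; 0.210). In Pole4+/+ cells 0 of 6 passed, where 4.6% of all genes tested did, and without Pole4+/+ Trp53-/- replicate 1, 4 rose, where 8.58% of all genes tested did. Of 10 partners of E2F6 in its Polycomb complex, 5 rose and 1 fell in Pole4-/- cells while E2f6 itself did not pass, where 21.8% of all genes tested rose and 20.8% fell. Cbx3 rose by 1.01 ± 0.11 (SE; 1.49e-05), Pcgf6 by 0.97 ± 0.16 (0.000278), L3mbtl2 by 0.92 ± 0.18 (0.000843) and Wdr5 by 0.88 ± 0.18 (0.00137), and Ring1 fell by 0.69 (SE 0.15; 0.00179). In Pole4+/+ cells 1 of 10 rose, Cbx3, by 0.42 ± 0.11 (SE; 0.0452), or 3 of 10 without Pole4+/+ Trp53-/- replicate 1, where 2.23% and 8.58% of all genes tested rose, and Max was lowest at -0.15 ± 0.10 (0.446).

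All 30 canonical E2F targets of the G1/S transition rose with Trp53 loss in Pole4-/- cells, by a median log2 fold change of 1.64, beside -0.02 for all genes tested, of which 21.8% rose. The list was written with earlier results of these data known, so that this count is a description and no independent support. Cdc6, which loads the replicative helicase, rose most, by 2.03 ± 0.28 (SE; adjusted p = 5.97e-05), and the phosphatase Cdc25a least, by 0.97 ± 0.19 (SE; 0.00111). Pola1 and Prim1, of the polymerase alpha-primase, rose by 1.75 ± 0.15 (1.7e-06) and 1.602 ± 0.18 (1.42e-05), and Tyms, which makes thymidylate, by 1.35 ± 0.15 (1.48e-05). In Pole4+/+ cells 3 of 30 rose, Pola1 (0.60 ± 0.15, 0.0276), Prim1 (0.66 ± 0.17, 0.0357) and Ccna2 (0.76 ± 0.21, 0.0481), with a median of 0.60, where 2.23% of all genes tested rose. Cdt1, which also loads the helicase, had the highest log2 fold change there, 0.84 ± 0.27 (SE), without passing (0.0846). All 30 rose without Pole4+/+ Trp53-/- replicate 1, with a median of 0.80, where 8.58% of all genes tested rose. With Pole4 loss in Trp53+/+ cells 22 of 30 fell, with a median of -0.89, where 2.7% of all genes tested fell, or 30 of 30 without that library, where 12.3% did. Their medians in these 3 comparisons lay beside 2.02, 0.73 and -0.93 for E2f7 and beside 0.23, 0.33 and -0.02 for E2f1. These comparisons share libraries and are given side by side only.

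Within the family, levels were most alike for E2f7 with Tfdp1 (Pearson r of log2 CPM = 0.968 over the 18 libraries), E2f7 with E2f8 (0.960) and E2f4 with E2f8 (0.959). These are descriptions, since the libraries share genotypes and scaling. After each library was set against its genotype mean the same pairs had r = 0.913, 0.940 and 0.909, and E2f3 had r = 0.906 to E2f7 and 0.875 to Tfdp1. These values rested in part on Pole4+/+ Trp53-/- replicate 1. Without it, an alternative chosen after seeing the data, the same 3 pairs had r = 0.754, 0.822 and 0.663 within genotypes, and E2f3 had 0.738 to E2f7 and 0.651 to Tfdp1. Tfdp2 was least like the rest, with r = 0.151 to E2f4 over the 18 libraries and -0.164 within genotypes, or 0.414 within genotypes without that library. E2f2 and E2f7 had r = 0.728 over the 18 libraries and 0.173 within genotypes, or 0.076 without it.

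Over the same 18 libraries the 3 genes outside the family most like each member were named as a description. E2f7 was closest to Scaf11, Cdk1 and Topbp1 (r = 0.991 for Cdk1), of which Cdk1 is the mitotic kinase and Topbp1 a replication initiation factor. E2f8 was closest to Eif1ad, Rrp1b and Pfas (0.986, 0.986 and 0.983), Tfdp1 to Fbxl14, Rbmxl1 and Tdg (0.983 for Tdg), and E2f4 to the histone chaperone Hira (0.972), the dUTPase Dut (0.971) and Arid1a (0.967). E2f3 was closest to Eaf1 (0.968), Bcar1 (0.962) and Rrn3 (0.955). For the other 5 members the nearest genes had an r of at most 0.900. E2f1 was closest to the histone genes Hist1h1c (0.854) and Hist1h4i (0.843) and to Lsm3 (0.840), E2f2 to the CDK inhibitor Cdkn2d (0.900), Gsdme (0.883) and Kif5c (0.881), and E2f5 to Fam210a (0.883), Xrcc2 (0.878) and Stag1 (0.863). E2f6 was closest to Trim16 (0.849), Bcl7b (0.845) and Nhlrc2 (0.837), and Tfdp2 to Brd9 (0.866), Magi3 (0.847) and Lpl (0.845).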

How the data were processed

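The authors trimmed paired-end Illumina reads from Ovation RNA-Seq System V2 libraries, aligned them to GRCm38 with STAR 2.5.2 and counted them per gene with RSEM 1.3.0. The deposited table holds their expected counts (6.14% of values not whole), with no normalization, and 51719 of 51912 identifiers matched the gene names of the reference annotation. Counts were rounded, scaled by TMM and filtered (filterByExpr), and 15710 genes were tested in 1 fit of 18 libraries with 12 residual degrees of freedom (edgeR 4.0.16, glmQLFit and glmQLFTest, R 4.3.3, Benjamini-Hochberg, called at adjusted p under 0.05). DESeq2 1.42.0, limma-voom (limma 3.58.1), other scalings, filters and thresholds, an Xist covariate, a replicate block, the compared libraries alone and leaving out each library were alternatives. Log2 CPM used a prior count of 2, and permutation tests SciPy 1.17.1. Expression per kb used the union of a gene's exons. The members and gene lists were chosen with earlier results of these data known; all 10 members are named, and of each list the genes with the lowest and highest log2 fold change and the 3 lowest p in either Trp53-/- comparison. On simulated counts for the Pole4-/- comparison over 15176 genes, edgeR called 49 of 98 genes changed by 1 on the log2 scale, 74 of 97 changed by 2, and 5 of 14981 unchanged. Same-numbered libraries of different genotypes were not treated as pairs: of 45 such pairs 22 had correlated deviations (r over 0.1, range -0.259 to 0.586). None of 18 library pairs within a genotype differed by sampling noise only.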

Additional observations from a re-analysis of the deposited data

Results flagged for a closer look

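Pola1, the catalytic subunit of DNA polymerase alpha and 1 of the 30 canonical E2F targets, was the only gene of that list whose response to Trp53 loss differed between the Pole4 backgrounds by the direct test of that difference. Its log2 fold change was 1.15 ± 0.21 (SE) larger in Pole4-/- than in Pole4+/+ cells (edgeR adjusted p = 0.0362), from 1.75 against 0.60, where 0.331% of all genes tested passed. The difference was 0.995 ± 0.163 (SE; adjusted p = 0.0217) without Pole4+/+ Trp53-/- replicate 1, and 7 of the 30 passed, where 1.07% of all genes tested did. The Pola1 call held in 15 of 28 alternatives, over which the difference ran from 0.995 to 1.26 and the adjusted p from 0.00019 to 0.175. It was lost without any single library of Pole4-/- Trp53-/- or Pole4-/- Trp53+/+, without replicate 1 or 2 of Pole4+/+ Trp53+/- or Pole4+/+ Trp53+/+, with library totals, with the Xist covariate and with the compared libraries alone. None of the 10 E2f and Tfdp genes passed that test.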

How the results depend on the processing

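For Trp53-/- against Trp53+/+ in Pole4-/- cells 6 to 7 of the 10 members were called when each library was left out in turn, and 3 with scaling by library totals alone. In Pole4+/+ cells limma-voom called 6 and leaving out a library gave 0 to 5. For Trp53+/- against Trp53+/+ in Pole4-/- cells, where 1 was called, an adjusted p under 0.01, the Xist covariate and the replicate block each left 0, DESeq2 called 2, and library totals, limma-voom and the compared libraries alone 4, with 0 to 4 when a library was left out. For Trp53-/- against Trp53+/- in Pole4-/- cells, with 3 called, library totals gave 0, an adjusted p under 0.01 and no filter 1, DESeq2 5, limma-voom 6, and leaving out a library 0 to 5. In Pole4+/+ cells this comparison gave 2 by limma-voom and 0 to 4 without a library. For Pole4 loss in Trp53+/+ cells, with 0 called, upper-quartile and RLE scaling, no filter and removal of the ribosomal RNA genes gave 1, DESeq2 2, the compared libraries alone 5, library totals and limma-voom 6, and leaving out a library 0 to 6. The test for any difference gave 3 at an adjusted p under 0.01 and 3 to 9 without a library. The interaction gave 3 by DESeq2 and by limma-voom and 0 to 5 without a library. The share of all genes tested that passed also moved with the setting, so that these counts alone are no result about the members. For Pole4 loss in Trp53+/+ cells it was 3.98% in the main fit, 10.3% by DESeq2 and 33.3% by limma-voom. For the interaction it was 0.331%, 11.4% and 7.85% in the same order.

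The activator minus repressor value moved to -1.32 (Pole4+/+ Trp53+/-), -0.96 (Pole4-/- Trp53+/+) and -1.37 (Pole4-/- Trp53-/-) as a log2 ratio of summed levels per kb. With E2f4 to E2f6 alone it was -0.94 for Pole4+/+ Trp53-/-, -1.03 for Pole4-/- Trp53+/+, then -0.94 for Pole4-/- Trp53-/-, and with E2f7 and E2f8 alone -1.35, -0.43 and -1.63. Among single members, E2f3 in Pole4+/+ cells turned from -0.02 to 0.058 with library totals and 0.066 with limma-voom and ran from -0.20 to 0.13 when a library was left out, and E2f6 there ran from -0.062 to 0.10. The replicate block changed no other call count, and 16 of 18 libraries were nearer to their own number, a hint from the data. The causes were not tested. Other scalings moved the median of all genes by -0.0938 to 0.0922 on the log2 scale. E2f2, with 9 to 81 counts in a library, is limited most by depth.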
